A study of Mus musculus with 12 samples.

Results

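Levels of 10 liver genes of nitrogen disposal and amino acid breakdown are described here: Cps1, Otc, Ass1, Asl and Arg1 of the urea cycle, and Gls2, Sds, Tdo2, Hal and Agxt2l1 from the list of amino acid breakdown genes. They were chosen by name, with earlier results of these data known, and are 10 of the 23284 genes in the deposited expression table. The 12 libraries came from mouse liver. All mice were labelled as lacking 2 apolipoproteins: A-I, around which high-density lipoprotein is built, and E, by which the liver takes up lipoprotein remnants. The DKO groups carried the Apoa1-/- Apoe-/- genotype alone, and the DKO/hA1 groups carried the same 2 deletions and expressed human APOA1. Feeding with chow, the standard laboratory diet, or with the high-fat Western diet lasted 22 weeks. On chow there were 4 libraries of DKO and 2 of DKO/hA1, and on Western diet 3 of each genotype, and these n apply throughout, with ± for the SD of a level and the SE of a log2 fold change. The promoter of the transgene and the age at the start of feeding are not given in the sources used here, and no group was labelled as having intact mouse Apoa1 and Apoe. Nothing in the labels says that samples of a group came from separate animals, so p-values measure the spread between these samples.

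The urea cycle turns ammonia, which is toxic, into urea for excretion, and the liver is the organ that runs the whole cycle. Cps1 and Otc work in the mitochondrion and make carbamoyl phosphate and then citrulline. Ass1, Asl and Arg1 work in the cytosol, where citrulline is joined to aspartate, argininosuccinate is split into arginine and fumarate, and arginine is cut into ornithine and urea. The other members act on single amino acids: Gls2 is the liver form of glutaminase and releases ammonia from glutamine, Sds deaminates serine, Tdo2 opens the tryptophan ring, and Hal takes the first step of histidine breakdown. Agxt2l1, now named Etnppl, is listed with these enzymes although it breaks down phosphoethanolamine, a precursor and breakdown product of phospholipid, and not an amino acid. Many of these genes are known to be more active in hepatocytes near the portal vein than in those around the central vein, and to respond to protein intake, fasting, glucagon and glucocorticoids.

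The promoters of Agxt2l1 and Hal are shown because these were the members with the widest range across libraries. RefSeq promoter sequences (build GRCm38.p6) were found for 5 of the 10 members. Each sequence below runs 5′ to 3′ over the 250 bases before the first listed start of transcription, and capitals mark matches on either strand to TTNNGNAA, the letters of a C/EBP motif, a family of hepatocyte transcription factors. The Agxt2l1 window lies at chr3:130617198-130617447 and the Hal window at chr10:93488518-93488767, both on the plus strand. For Agxt2l1 2 starts were listed, and for Hal 1. Bases just after the start were found in a GENCODE transcript of the gene for Hal but not for Agxt2l1. The start used for Agxt2l1 was thus not matched to a transcript.
Agxt2l1: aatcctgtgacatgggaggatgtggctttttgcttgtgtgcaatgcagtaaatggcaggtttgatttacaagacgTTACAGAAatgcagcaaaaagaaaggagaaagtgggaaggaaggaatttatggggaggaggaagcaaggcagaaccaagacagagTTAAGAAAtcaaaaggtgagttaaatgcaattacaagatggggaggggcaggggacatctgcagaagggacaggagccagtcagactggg
Hal: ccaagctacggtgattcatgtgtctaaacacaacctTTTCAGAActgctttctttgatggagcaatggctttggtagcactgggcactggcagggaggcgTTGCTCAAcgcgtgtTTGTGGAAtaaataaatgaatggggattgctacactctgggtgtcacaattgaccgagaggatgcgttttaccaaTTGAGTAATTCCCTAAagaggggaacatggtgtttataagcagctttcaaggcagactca
The motif matched at 2 places for Agxt2l1 and at 5 places for Hal, where the last 2 adjoin. Of 32851 promoter windows of the same length, 36.8% held at least 1 match, 12.2% held 2 or more and 0.2% held 5 or more. Neither window held TGACG (the core of a CREB site, in 17.8% of all windows), TTCNNNGAA (STAT, 7.0%) or TGTTCT (part of a glucocorticoid receptor site, 16.1%), counted on both strands. A match describes letters only, and no binding was measured.

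Values are FPKM, mapped fragments scaled to transcript length and library size, which can be compared between genes. Of the 23284 genes, 11546 passed a minimum of 1 FPKM in at least 2 libraries, among them all 10 members. FPKM summed to 379689 to 578927 per library, and relative depth estimated from the lowest values ran from 0.514 to 1.32 of DKO chow replicate 1, so read numbers behind each value are unknown. Apoa1 averaged 40.4 and 59.4 FPKM in DKO on chow and Western diet, and 226.8 and 189 FPKM in DKO/hA1. Apoe averaged 40.8 and 47.4 FPKM in DKO and 26.5 and 45.4 FPKM in DKO/hA1, so it was detected in groups labelled as lacking it. Which reads these 2 rows count, from what the deletions leave or, for Apoa1, from the human transgene, is not given in the sources used here, so the levels do not check the deletions. All 10 hepatocyte markers were present, with summed levels of 16087 to 25986 FPKM, and kidney markers summed to at most 0.0953 FPKM. Replicates 2 and 3 of DKO Western diet and replicate 3 of DKO/hA1 Western diet stood apart in the 18 acute phase genes, secreted or induced by the liver in inflammation: their mean log2(FPKM + 1) was 11.45, 10.80 and 11.31, against 7.32 to 9.53 in the other 9. Averaged diet effects without these 3 libraries are given beside the acute phase values or with the gene. Such a fit leaves a single library in DKO Western diet, which limits what its estimates and lost calls show.

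By median over the 12 libraries, Arg1 (752 FPKM), Tdo2 (669 FPKM) and Cps1 (667 FPKM) were the most abundant members. Asl (236 FPKM), Otc (201 FPKM), Sds (148 FPKM), Gls2 (130.2 FPKM), Hal (105 FPKM) and Ass1 (76.4 FPKM) followed, and Agxt2l1 (28.7 FPKM) was lowest. Ranges of neighbours in this order overlapped, except that Cps1 lay wholly above Asl and Agxt2l1 wholly below Ass1. Agxt2l1 was the most variable member, with a 20.2-fold span between its lowest and highest library, followed by Hal with 3.52-fold. The other 8 spanned 1.70-fold (Arg1) to 2.85-fold (Sds).

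**Figure D1:**
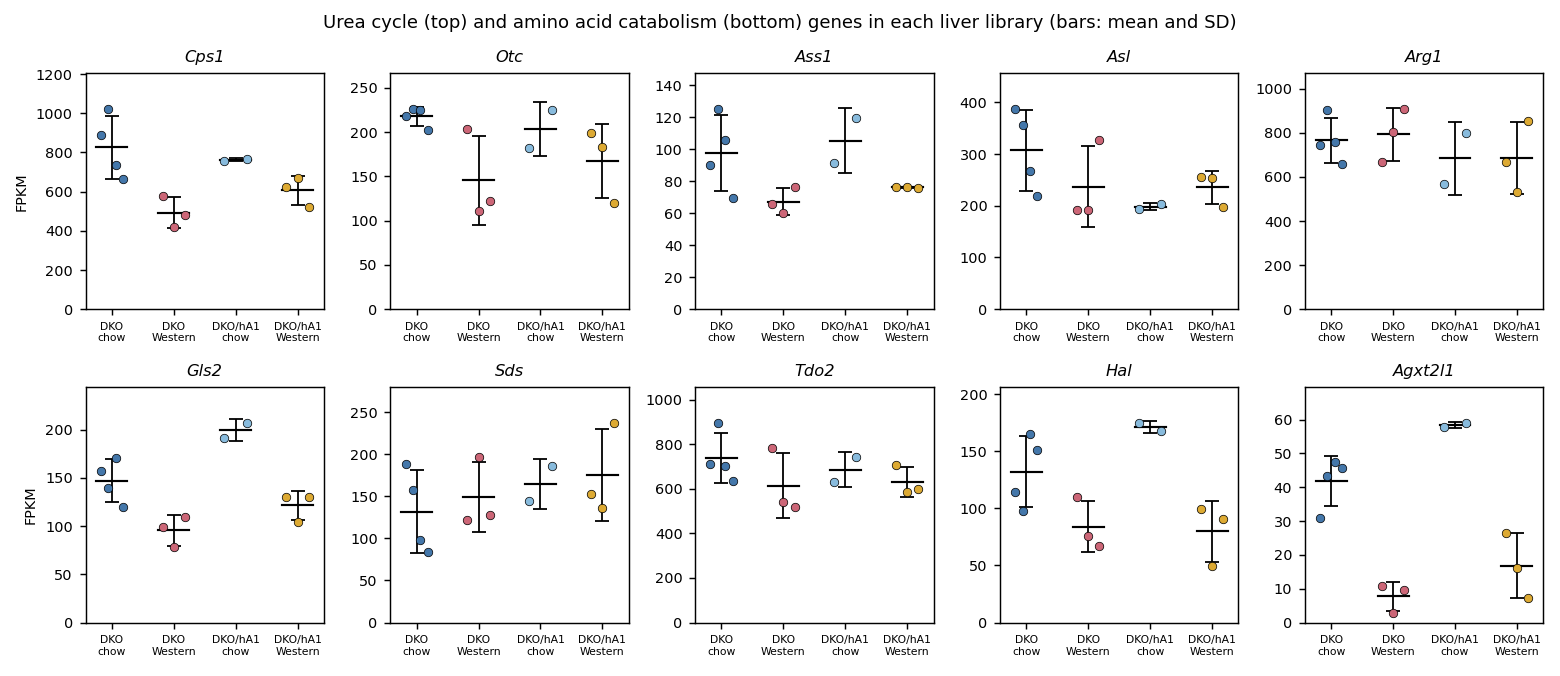
FPKM of each of the 10 genes by group, 1 point per library, with bars for the group mean and SD. Agxt2l1 fell from 30.9 to 59.1 FPKM in the 6 chow libraries to 2.92 to 26.6 FPKM in the 6 Western diet libraries, while Arg1 and Sds overlapped between diets in both genotypes.

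Western diet livers had lower levels of Agxt2l1, Hal and Gls2, and these 3 members passed the test of the diet effect averaged over the genotypes. In that comparison 1.21% of all genes were called lower, 2.8% higher and 4.01% in either direction, against 3 of 10 members called lower and 0 called higher. As members were chosen with earlier results of these data known, such shares, here and below, are descriptions and not a test of the list. At an unadjusted p below 0.05 stood 6 members, against 19.6% of all genes. Calls required an adjusted p below 0.05 (limma on log2(FPKM + 1), Benjamini-Hochberg adjustment across the 11546 genes). The members' median log2 fold change, Western diet minus chow, was -0.52, and it was -0.01 over all genes. Of the 10 members, 9 had a negative estimate, against 53.0% of all genes. Setting library totals equal, a scaling that moved the median of all genes to -0.14, changed the split of all calls from 323 higher and 140 lower to 181 higher and 240 lower. The 3 members were also called lower under that scaling, as was Ass1.

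In the RefSeq annotation of GRCm38.p6, Agxt2l1 spans chr3:130617448-130635750 on the plus strand, Hal chr10:93488768-93516761 and Gls2 chr10:128194635-128210004, both also on the plus strand. Agxt2l1 was 30.9, 43.3, 47.4 and 45.7 FPKM in DKO chow and 10.8, 2.92 and 9.72 FPKM in DKO Western diet. With human APOA1 the values were 57.8 and 59.1 FPKM on chow and 26.6, 16.2 and 7.37 FPKM on Western diet. Every Western diet library was below every chow library, across both genotypes, and the lowest was DKO Western diet replicate 2. The 3 libraries that stood apart in acute phase genes held the 3 lowest values. Without them the averaged estimate was -1.69. The mean on chow was 5.35 times that on Western diet in DKO and 3.50 times in DKO/hA1. Averaged over genotypes Agxt2l1 fell by 2.20 ± 0.33 on the log2 scale (limma, adjusted p = 0.00787). As these are whole tissue samples, fewer cells of a type and less RNA per cell cannot be told apart, here and below.

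Hal was 114, 97.7, 165 and 151 FPKM in DKO chow and 109.6, 75.5 and 67.1 FPKM in DKO Western diet. The DKO/hA1 libraries had 175 and 168 FPKM on chow and 99.8, 49.8 and 90.7 FPKM on Western diet. The diets overlapped in DKO, where chow replicate 2 lay below Western diet replicate 1, and did not overlap in DKO/hA1. Averaged over genotypes Hal fell by 0.94 ± 0.20 on the log2 scale (limma, adjusted p = 0.0236).

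Gls2 was 157, 139.8, 171 and 119 FPKM in DKO chow and 99.3, 78.1 and 109 FPKM in DKO Western diet. With human APOA1 the values were 192 and 207 FPKM on chow and 130.1, 104 and 130.2 FPKM on Western diet. The diets did not overlap within either genotype, although DKO/hA1 Western diet reached into the range of DKO chow. Averaged over genotypes Gls2 fell by 0.71 ± 0.13 on the log2 scale (limma, adjusted p = 0.0115).

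The 5 urea cycle genes did not pass the test in any of the 7 comparisons as fitted here, although alternatives called Cps1, Ass1 or Otc for averaged diet, as stated below. Cps1, which feeds ammonia into the cycle, was 889, 1020.5, 734 and 664 FPKM in DKO chow and 579, 420.3 and 479.6 FPKM in DKO Western diet. The DKO/hA1 libraries had 757 and 768 FPKM on chow and 626, 669.5 and 523 FPKM on Western diet. Within each genotype all Western diet libraries were below all chow libraries. The estimate averaged over genotypes was -0.58 ± 0.15 (limma, adjusted p = 0.0558). The 3 libraries that stood apart held the 3 lowest values, and without them the estimate was -0.42.

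Otc was 218, 226, 225 and 203 FPKM in DKO chow and 204, 111 and 122 FPKM in DKO Western diet. DKO/hA1 livers had 182 and 225 FPKM on chow and 199, 184 and 120.2 FPKM on Western diet. The 3 libraries that stood apart in acute phase genes held the 3 lowest values, and the other Western diet libraries lay within the range of chow of their genotype. The averaged estimate was -0.51 ± 0.17 (limma, adjusted p = 0.128), and without those 3 libraries it was -0.14.

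Ass1 was 89.8, 125, 106 and 69.2 FPKM in DKO chow and 65.4, 60.0 and 76.3 FPKM in DKO Western diet. With human APOA1 the values were 91.0 and 119.7 FPKM on chow and 76.4, 76.5 and 75.8 FPKM on Western diet. Western diet values were the tighter ones, and they overlapped with chow only through DKO chow replicate 4. The averaged estimate was -0.52 ± 0.15 (limma, adjusted p = 0.0875), and Ass1 was called lower with library totals set equal (-0.67, adjusted p = 0.0398).

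Asl was 387, 356, 268 and 218 FPKM in DKO chow and 192, 192 and 327 FPKM in DKO Western diet. The DKO/hA1 libraries had 193 and 204 FPKM on chow and 256, 253 and 198 FPKM on Western diet. The estimates differed in sign between genotypes, -0.46 ± 0.25 in DKO and 0.22 ± 0.29 in DKO/hA1, and their difference did not pass the test (interaction 0.67 ± 0.38, limma, adjusted p = 0.960).

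Arg1, the final enzyme of the cycle, was 746, 902, 758 and 659 FPKM in DKO chow and 668, 806 and 907 FPKM in DKO Western diet. DKO/hA1 livers had 568 and 799.9 FPKM on chow and 669.9, 533 and 856 FPKM on Western diet. Groups overlapped throughout. The averaged estimate for Arg1 was -0.02, with a 95% interval from -0.39 to 0.35. The related mitochondrial arginase Arg2 was at 0.175 to 5.28 FPKM.

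Sds was 189, 157, 98.1 and 83.5 FPKM in DKO chow and 122, 197 and 127 FPKM in DKO Western diet. With human APOA1 the values were 144 and 186 FPKM on chow and 152, 136 and 238 FPKM on Western diet. Sds was the sole member with a positive averaged estimate, 0.09 ± 0.24, which became -0.06 with library totals set equal. Its relative Sdsl was at 5.59 to 16.7 FPKM.

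Tdo2 was 713, 897, 704 and 635 FPKM in DKO chow and 785, 540.4 and 519 FPKM in DKO Western diet. DKO/hA1 livers had 629.9 and 742 FPKM on chow and 705, 587 and 599 FPKM on Western diet. The diets overlapped in both genotypes, and the averaged estimate was -0.24 ± 0.15 (limma, adjusted p = 0.415), or -0.05 without the 3 libraries that stood apart. Ido2, which acts on the same amino acid, was at 21.5 to 36.2 FPKM.

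Within a single genotype no member passed the test of diet. In DKO, where 0.113% of all genes were called in either direction, 6 of 10 members had an unadjusted p below 0.05, against 11.7% of all genes. The members' median was -0.63 and that of all genes -0.01. Agxt2l1 came nearest to the threshold at -2.48 ± 0.43 (limma, adjusted p = 0.0891). Western diet FPKM lay wholly below chow for Cps1, Gls2 and Agxt2l1, 3 of 10 members against 3.16% of all genes, and wholly above chow for 0 members against 10.5%.

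In DKO/hA1, where 1.44% of all genes were called, 3 members had an unadjusted p below 0.05, against 13.6% of all genes. The members' median was -0.34 and that of all genes -0.02. The estimates were -1.93 ± 0.51 for Agxt2l1 (limma, adjusted p = 0.102), -1.17 ± 0.30 for Hal (limma, adjusted p = 0.0863) and -0.74 ± 0.19 for Gls2 (limma, adjusted p = 0.0911). Western diet FPKM lay wholly below chow for Cps1, Ass1, Gls2, Hal and Agxt2l1, 5 of 10 members against 14.7% of all genes, and wholly above chow for 0 members against 15.6%.

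**Figure D2:**
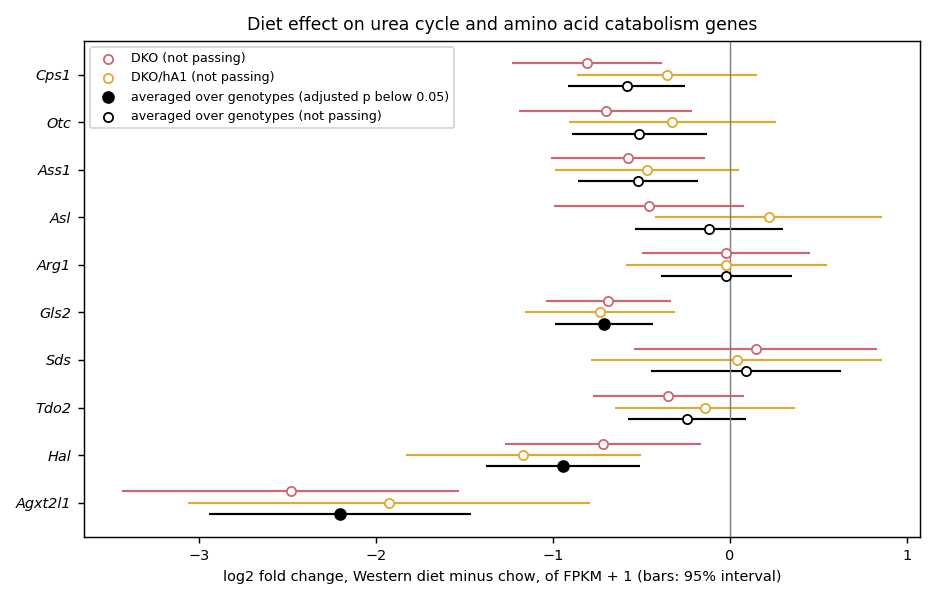
Log2 fold change of FPKM + 1, Western diet minus chow, for each gene in DKO, in DKO/hA1 and averaged over both, with 95% intervals from limma. Filled points passed the test, and these are the averaged effects of Agxt2l1 (-2.20), Hal (-0.94) and Gls2 (-0.71).

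No member passed the test of genotype on either diet. On chow, 0.0779% of all genes were called for genotype and 0 of 10 members were, with 2 members at an unadjusted p below 0.05 against 7.51% of all genes. These were Asl at -0.63 ± 0.28 and Gls2 at 0.41 ± 0.18, DKO/hA1 minus DKO (limma, adjusted p = 0.659 for both). Chow FPKM of Gls2, Hal and Agxt2l1 was higher in both DKO/hA1 libraries than in all DKO libraries, 3 of 10 against 12.3% of all genes, and Asl was lower in both, 1 of 10 against 9.28%. On Western diet 0% of all genes and 0 members were called, and 0 members had an unadjusted p below 0.05 against 5.95% of all genes. There the genotypes overlapped for all 10 members, while DKO/hA1 lay wholly higher for 4.38% and wholly lower for 5.16% of all genes. The estimate for Agxt2l1 there was 1.01 ± 0.46 (limma, adjusted p = 0.839), with a 95% interval from -0.0035 to 2.03.

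The diet effect was not shown to differ between genotypes for any member. The interaction called 0.0173% of all genes and 0 members, and 0 members had an unadjusted p below 0.05 against 4.9% of all genes. For Agxt2l1 it was 0.56 ± 0.67, for Hal -0.45 ± 0.40 and for Gls2 -0.05 ± 0.25. With these standard errors the intervals are wide, from -0.93 to 2.04 for Agxt2l1. Averaged over diets, genotype called 0.0866% of all genes and 0 members, and 1 member, Gls2, had an unadjusted p below 0.05 against 8.23% of all genes, at 0.39 ± 0.13 (limma, adjusted p = 0.428).

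Across 73 other tested genes of amino acid metabolism, the averaged diet effect was called higher for 1 and lower for 3. Over all genes these shares were 2.8% and 1.21%. Of the 73 estimates 53 were negative and 20 positive, against 53.0% negative over all genes. Their median was -0.13, against -0.01. The gene called higher was Glul, glutamine synthetase, which captures the ammonia that escapes the urea cycle around the central vein (0.74 ± 0.18, limma, adjusted p = 0.0408). The call for Glul held in 11 of 25 alternatives. It was lost, among others, with library totals set equal (0.59, limma, adjusted p = 0.112) and without the 3 libraries highest in acute phase genes (0.69). In DKO, Glul averaged 356 ± 59.7 FPKM on chow and 570.5 ± 134 FPKM on Western diet. The DKO/hA1 means were 252 ± 11.5 and 483 ± 126 FPKM.

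The genes called lower were Agxt, Gcat and Amdhd1. Agxt, which converts glyoxylate to glycine, had an averaged effect of -0.85 ± 0.15 (limma, adjusted p = 0.0104) and was also called lower in DKO/hA1 alone (-1.06 ± 0.23, limma, adjusted p = 0.0469), a call near the threshold that held in 5 of 26 alternatives, with adjusted p from 0.0433 to 0.481. Gcat, of threonine and glycine breakdown, was at -0.75 ± 0.14 (limma, adjusted p = 0.0157). Amdhd1, the third enzyme of histidine breakdown, was at -0.95 ± 0.18 (limma, adjusted p = 0.0158). The averaged calls held in 22 of 25 alternatives for Agxt, 19 for Gcat and 20 for Amdhd1. All 3 were lost without the 3 libraries highest in acute phase genes (Agxt -0.80, Gcat -0.65 and Amdhd1 -0.69). That fit leaves a single library in DKO Western diet. The 3 calls were also lost without replicate 2 of DKO/hA1 chow, which leaves a single library in that group, and with the acute phase level as a term. With that term Agxt was at -0.91, Gcat at -0.35 and Amdhd1 at -0.64 (limma, adjusted p from 0.141 to 0.428).

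All 3 other genes of histidine breakdown had negative averaged estimates, against 53.0% of all genes, although only Amdhd1 passed. Uroc1, which acts on the product of Hal, was at -0.34 (limma, adjusted p = 0.105), and Ftcd, the last step, at -0.46 (limma, adjusted p = 0.104). Hal and Amdhd1 lie 6576 bases apart on chromosome 10 on opposite strands (RefSeq, GRCm38.p6), and whether reads were counted by strand is not given in the sources used here. Hal and Amdhd1 do not overlap in that annotation.

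**Figure D3:**
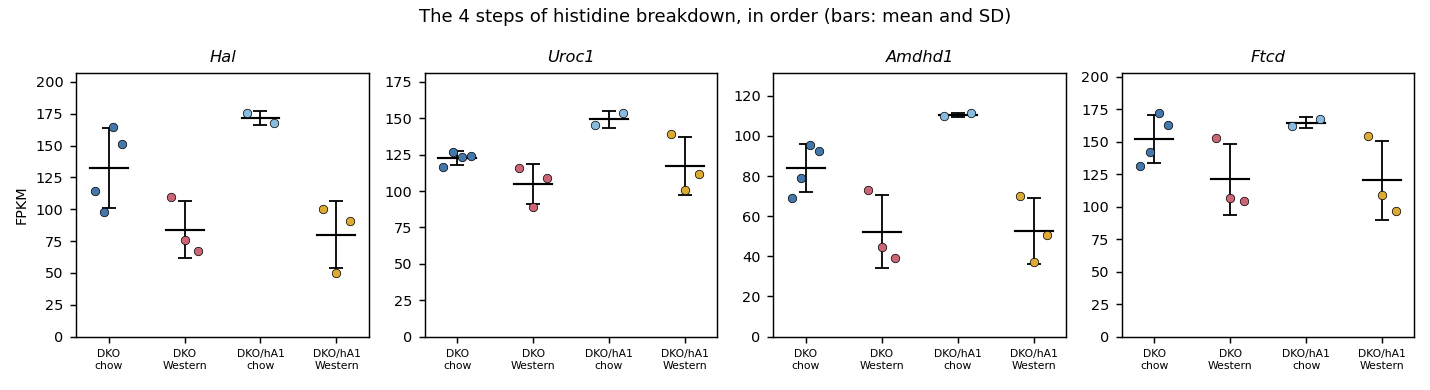
FPKM of Hal, Uroc1, Amdhd1 and Ftcd, in the order of the pathway, by group, 1 point per library with mean and SD. Hal and Amdhd1 were each lower in all 3 DKO/hA1 Western diet libraries than in both DKO/hA1 chow libraries.

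Of 17 tested branched-chain amino acid genes, 0 were called, against 4.01% of all genes for averaged diet. A negative averaged estimate was found for 15, against 53.0% of all genes. The median of the 17 was -0.19, and Acadsb had the smallest p (-0.55, limma, adjusted p = 0.0640). None of 8 phenylalanine and tyrosine genes, 8 tryptophan and kynurenine genes, 4 lysine genes or 3 proline genes was called for diet or genotype. Regulators known to act on these pathways, among them Gcgr, Nr3c1, Cebpa, Cebpb, Hnf4a and Ppargc1a, gave 0 calls of 13, and fasting and gluconeogenesis genes 0 of 9. The 6 genes around phosphoethanolamine gave 0 calls. Etnk1, ethanolamine kinase, which makes the substrate of Agxt2l1, was at -0.43 (limma, adjusted p = 0.0654). Among all these other lists, the uncalled genes with the smallest p were, for diet in DKO, Gcat (-0.71), Agxt (-0.64) and Amdhd1 (-0.78), each as a log2 fold change from limma with adjusted p from 0.182 to 0.246. For diet in DKO/hA1 they were Etnk1 (-0.79), Amdhd1 (-1.12) and Gcat (-0.79), with adjusted p from 0.0564 to 0.105. For genotype on chow they were Angptl4 (-1.98), a fasting-induced inhibitor of lipoprotein lipase, Etnk1 (0.77) and the fasting hormone Fgf21 (1.72), with adjusted p from 0.149 to 0.288. For genotype on Western diet, Grhpr (-0.45), Foxa2 (-0.41) and Glud1 (-0.31) had adjusted p from 0.749 to 0.813. For the interaction, Angptl4 (1.82), Etnk1 (-0.73) and Prodh (1.10) each had an adjusted p of 0.960. For averaged diet, Pdk4 (-1.15, adjusted p = 0.0729) joined Acadsb and Etnk1 in limma. For genotype averaged over diets, Angptl4 (-1.07), Grhpr (-0.39) and Creb3l3 (-0.41) had adjusted p from 0.267 to 0.310.

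The close relative Agxt2l2 was at 4.25 to 6.87 FPKM in all libraries, so the ratio of mean Agxt2l1 to mean Agxt2l2 was 7.32 in DKO chow and 1.35 in DKO Western diet, and 13.1 and 3.28 in DKO/hA1.

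Genes that followed Agxt2l1 most closely over the 12 libraries (Pearson r of scaled log2(FPKM + 1), a description over libraries that also differ in diet, acute phase level and depth) were Gstm6 (r = 0.977), Cyp3a11 (0.964), Gm4956 (0.949), Gsta4 (0.949) and Cyp2f2 (0.948). For Hal they were Amdhd1 (0.960), Agxt (0.953), Tstd1 (0.939), Ocln (0.938) and Cdh1 (0.928). Cyp3a11 is a major drug-metabolising cytochrome and ran from 3.50 to 1802 FPKM, and Cyp2f2 is a marker of hepatocytes near the portal vein.

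Levels of other genes moved with the members, and their part in the results was not tested except as stated here. Calls of markers and acute phase genes below are for averaged diet, where 2.8% of all genes were called higher and 1.21% lower. Portal-zone markers summed to 2092 to 2867 FPKM in DKO chow and 1550 to 1869 in DKO Western diet, and 1918 to 2439 and 1818 to 1847 in DKO/hA1, with 2 of 7 called lower by diet (Cyp2f2 at -1.26 and Pigr at -0.48). Among the portal-zone markers, Ctsc alone had a positive averaged estimate (0.67, not called). Central-zone markers gave 2 of 10 called higher, Glul and Slc13a3 (2.06). Their median was 0.39 for averaged diet, 0.01 in DKO and 0.77 in DKO/hA1. Among the central-zone markers, Cyp1a2 (-0.34) and Axin2 (-0.04) alone had negative averaged estimates, and neither was called. Central-zone sums overlapped between diets in both genotypes. On chow and Western diet they were 3494 to 5934 and 4617 to 5534 FPKM in DKO. In DKO/hA1 they were 2287 to 2511 and 2144 to 6726 FPKM. Macrophage markers gave 7 of 11 called higher, with sums of 288 to 713 FPKM on chow and 960.5 to 1261 FPKM on Western diet in DKO, and of 210.4 to 569.9 and 1433 to 2148 FPKM in DKO/hA1. Neutrophil markers had a median of 2.55 for averaged diet, with 1 of 7 (Lcn2) called higher. Lcn2 is also in the acute phase list, and the other tested neutrophil markers had adjusted p from 0.108 to 0.185 in limma. Neutrophil markers, Lcn2 included, summed in DKO to 27.9 to 87.97 FPKM on chow and 495.9 to 4170 FPKM on Western diet. In DKO/hA1 they summed to 38.1 to 74.8 and 106 to 4437 FPKM. Without the 2 libraries highest in them, replicate 2 of DKO Western diet and replicate 3 of DKO/hA1 Western diet, Hal was at -0.97 (limma, adjusted p = 0.0648), while Agxt2l1 (-1.72, adjusted p = 0.00141) and Gls2 (-0.67, adjusted p = 0.0315) were called. None of 10 hepatocyte markers was called.

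The acute phase genes gave 6 of 18 called higher by diet and summed in DKO to 11082 to 18222 FPKM on chow and 33585 to 157281 FPKM on Western diet. The sums in DKO/hA1 were 16534 to 21287 and 14409 to 135032 FPKM. Without the 3 highest libraries, which leaves a single library in DKO Western diet, Agxt2l1 was at -1.69 for averaged diet and called lower. Hal (-0.81) and Gls2 (-0.71) were not called there. With all 12 libraries they were at -0.94 and -0.71. Without those 3 libraries Ass1 was at -0.54, Asl at -0.19, Arg1 at -0.23 and Sds at -0.16, and these were not called. With the acute phase level as a term, 0 members and 35 of all 11546 genes were called. Agxt2l1 was at -1.09, Hal at -0.80, Cps1 at -0.44, Tdo2 at -0.13 and Otc at -0.03, each smaller in size than without the term. Gls2 (-0.76), Ass1 (-0.63), Asl (-0.16) and Arg1 (-0.45) were lower than without it, and Sds turned negative (-0.67). Adjusted p of the members ran from 0.142 to 0.966 in limma. Both alternatives were chosen after the data were seen.

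**Figure D4:**
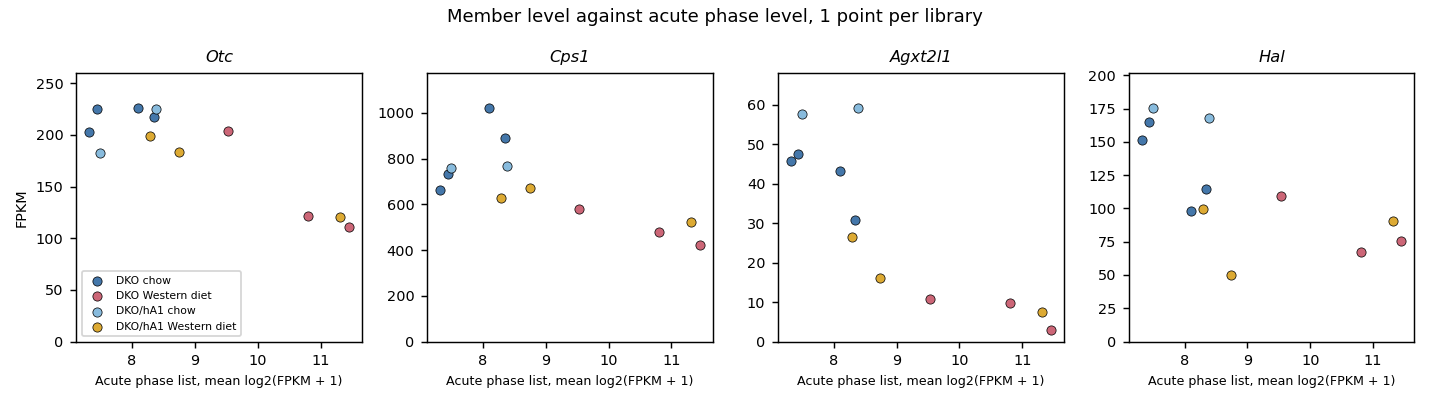
FPKM of Otc, Cps1, Agxt2l1 and Hal against the mean log2(FPKM + 1) of 18 acute phase genes, 1 point per library. The 3 libraries at 10.80, 11.31 and 11.45 on the horizontal axis hold the 3 lowest values of Otc, of Cps1 and of Agxt2l1. Agxt2l1 is also lower in the Western diet libraries to their left than in the chow libraries.

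A clock index, the mean log2 of 5 genes of the Arntl arm of the circadian clock minus that of 8 genes of the Dbp arm, separated libraries within a group. It was -2.78 and -2.73 in DKO chow replicates 1 and 2 and 0.77 and 0.42 in replicates 3 and 4. In replicates 1 and 2, Asl (387 and 356 FPKM) and Sds (189 and 157 FPKM) were higher than in replicates 3 and 4 (268 and 218, 98.1 and 83.5 FPKM). Hal (114 and 97.7 FPKM) was lower than there (165 and 151 FPKM). Cps1 and Tdo2 were also higher in replicates 1 and 2, and Agxt2l1 was lower. Otc, Ass1, Arg1 and Gls2 overlapped between these pairs. The share of all genes that separate these pairs was not computed, so this is a description only. In the DKO/hA1 mice the index was 0.10 and 0.60 on chow and -2.27, -2.58 and -0.96 on Western diet, so that the diets did not overlap. It was -1.44, -1.87 and -0.66 in DKO Western diet. The time of collection is not given in the sources used here. With the index as a term, Agxt2l1 (-2.16, adjusted p = 0.0321), Gls2 (-0.69, adjusted p = 0.0423) and Cps1 (-0.76, adjusted p = 0.0301) were called lower for averaged diet in limma, and Hal was not (-0.75, adjusted p = 0.0831).

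**Figure D5:**
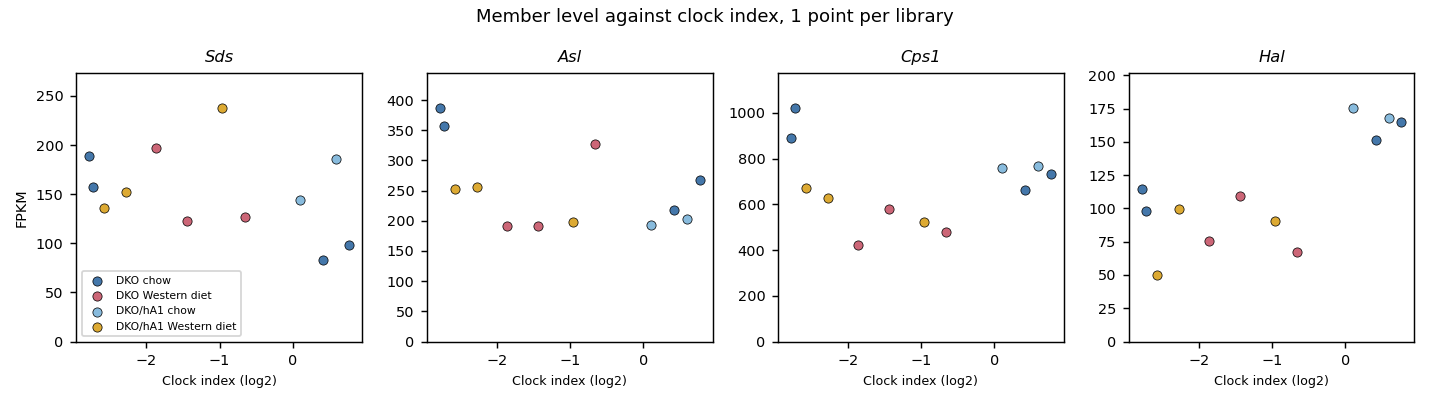
FPKM of Sds, Asl, Cps1 and Hal against the clock index, 1 point per library, coloured by group. In DKO chow the 2 libraries with an index of -2.78 and -2.73 are higher in Sds, Asl and Cps1 and lower in Hal than the other 2, at 0.77 and 0.42.

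Leaving out 1 library also decided calls. Without DKO/hA1 chow replicate 2, which leaves a single library in that group, no member was called for averaged diet, with Agxt2l1 at -2.19 (limma, adjusted p = 0.0611), Gls2 at -0.68 (adjusted p = 0.0890) and Hal at -0.95 (adjusted p = 0.115). Hal was also not called without replicate 3 of DKO chow, replicate 2 or 3 of DKO Western diet, or replicate 1 of DKO/hA1 chow, with adjusted p from 0.0514 to 0.0792. Estimates of the 3 genes stayed negative in every such fit. Calls were also gained: Cps1 (-0.64, adjusted p = 0.0449) and Ass1 (-0.60, adjusted p = 0.0338) without replicate 4 of DKO chow, and Otc (-0.64, adjusted p = 0.0423) without replicate 1 of DKO Western diet, all in limma.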

How the data were processed

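RNA of 12 liver libraries was sequenced on an Illumina Genome Analyzer IIx, and samples with an RNA integrity number under 7 had been dropped, per the labels' protocols. Per the submitters' processing notes, the tools were TopHat 1.3.2, Bowtie 0.12.8, SAMtools 0.1.19 and Cuffdiff, with build mm10. Annotation, Cuffdiff version and use of strand are not given in the sources used here. The deposited table holds FPKM from the authors, not whole counts, so no count model was used. Small RNA genes (787) and genes listed at 0 throughout a group but at least 1 FPKM in another (22) were left out, as were 10929 genes below 1 FPKM in at least 2 libraries. Libraries were scaled by trimmed means of log ratios without weights (trims 0.3 and 0.05), and 1 was added before the log2, which understates changes of low genes. limma 3.58.1 in R 4.3.3 (trended, robust variance) fitted the 4 groups over all 12 libraries, with 8 residual degrees of freedom before moderation, 7 comparisons, two-sided tests and adjustment over 11546 genes. The fit was run on simulated data whose noise was independent between genes and libraries. Those data do not model shared acute phase, clock or depth differences. All 10 members are named. From other pathway lists, called genes and, in each comparison, the 3 uncalled genes of smallest p are named. Members and lists were chosen with earlier results of these data known. Python 3.11.15, pandas 2.3.3, numpy 2.4.6 and matplotlib 3.10.9 made the figures and promoter matches.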

Additional observations from a re-analysis of the deposited data

How the results depend on the processing

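Across 26 alternatives, 12 of which left out 1 library each, 98 of 1790 member estimates changed sign, and 0 of these were called before or after. For averaged diet the number of members called was 3, and it ranged from 0 to 5 with a library left out, was 1 without the 3 libraries highest in acute phase genes and 0 with acute phase level as a term. For diet in DKO it was 0, and 0 to 1 with a library left out. Without the 2 libraries highest in neutrophil markers (replicate 2 of DKO Western diet and replicate 3 of DKO/hA1 Western diet) it was 1 (Agxt2l1). For diet in DKO/hA1 it was 0, and 1 (Agxt2l1) both without those 2 and without the 3 acute phase libraries. Over all genes, calls for averaged diet ranged from 35 to 548 around 463, for diet in DKO from 2 to 71 around 13, and for diet in DKO/hA1 from 4 to 187 around 166. The 35 calls for averaged diet and the 2 for diet in DKO came with the acute phase level as a term. Few members would thus be called there even at the share of all genes. The cause of these ranges was not tested. Same-numbered libraries had deviations correlated at -0.383 to 0.530, so the numbers were not taken as pairs. The libraries at 0.530, replicate 1 of DKO Western diet and of DKO/hA1 Western diet, also share a number in their column headers. So do both DKO/hA1 chow libraries and DKO chow replicate 3. What these header numbers mean is not given in the sources used here, and no fit used them. With a replicate block, averaged diet called 4 members (Ass1, Gls2, Hal and Agxt2l1), and the other 6 comparisons called 0. The small groups, above all the 2 DKO/hA1 chow libraries, limit the precision.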
